A study of Mus musculus with 2 samples.

Results

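Abcd4, Lcmt2, Lsm10, Aspdh, Tstd1 and Olfr57 are 6 genes, of 32285 features counted, chosen by their measured UMI levels: their transcripts were more abundant in Mettl14-cKO than in control retinal cells across many cell classes. The choice used these same libraries and classes, so the differences below are a description and carry no test. The study counted transcripts in single cells dissociated from mouse retinas at postnatal day 7. The Mettl14-cKO library came from Mettl14 fl/fl retinas that also carried an Egfp/Cre transgene driven in retinal progenitors. The control library came from Mettl14 fl/fl or fl/wt retinas with no Cre given in the label, so floxed alleles were present in both libraries. There was 1 library per genotype, the number of animals pooled in each is not stated, and no value has a replicate check. Genotype and library cannot be told apart.

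Mettl14 is a subunit of the nuclear enzyme complex that places m6A, a methyl mark on adenosines inside messenger RNA, and m6A is known for speeding the decay of many transcripts. m6A is concentrated in long exons and near stop codons, and it is kept away from the ends of short internal exons. The 6 genes have no shared pathway. Abcd4 encodes an ABC transporter that moves cobalamin (vitamin B12) out of lysosomes. Lcmt2, also called Tyw4, encodes an enzyme of wybutosine synthesis, which modifies phenylalanine transfer RNA. Lsm10 encodes a subunit of the U7 small nuclear ribonucleoprotein, which cuts the 3′ ends of replication-dependent histone messages. Aspdh encodes a protein named as an aspartate dehydrogenase, Tstd1 encodes a small sulfurtransferase-like protein, and Olfr57 is an olfactory receptor gene. Retinal neurons and Müller glia descend from the retinal progenitors in which the transgene is driven. Retinal astrocytes enter from the optic nerve, microglia are of hematopoietic origin and pericytes belong to vessels, so these classes lie outside that lineage.

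All 6 members had rows in the deposited count tables, and all 6 were detected in both libraries. After barcodes under 1000 UMIs (unique molecular identifiers, each counted as 1 transcript molecule) were left out, 13502 Mettl14-cKO and 11426 control barcodes remained, with a median of 3212 UMIs in Mettl14-cKO and 3487 in control. A marker gate placed barcodes in classes by summed marker UMIs, and each class is called X-like. Of the kept barcodes, 21.97% in Mettl14-cKO and 11.7% in control reached no class. In every described class at least 5 markers of its own list stood 2-fold or more above the other barcodes of the same library. The cone-like class also held many rod marker UMIs, at 190 in Mettl14-cKO and 254 in control per 10000 UMIs. In a joint clustering of both libraries, rod-like and Müller glia-like barcodes of Mettl14-cKO and of control mostly fell in different clusters, numbered here by size from 0. Of Mettl14-cKO rod-like barcodes 60.1% lay in cluster 2, and of control rod-like barcodes 65.2% lay in cluster 0. Of Mettl14-cKO Müller glia-like barcodes 82.9% lay in cluster 3, and of control Müller glia-like barcodes 67.7% lay in cluster 11. Summed Müller markers in Müller glia-like barcodes were at 47.5 in Mettl14-cKO and 104 in control per 10000 UMIs, and the part of these shifts in the values below was not tested. The 2 libraries shared 39 of the kept barcode sequences. Mettl14 itself had 14.5 CPM (the gene's UMIs over all UMIs, times 1000000; 846 UMIs) in Mettl14-cKO and 27.1 CPM (1478 UMIs) in control. The labels do not give the deleted exons, and a 3′ tag outside them does not check the deletion.

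Over all kept barcodes every member was higher in the Mettl14-cKO library. Lsm10, the most abundant of them by UMIs, had 64.0 CPM in Mettl14-cKO, against 25.6 CPM in control, a ratio of 2.50 (exact 95% interval 2.35 to 2.66, here and below for counting error only). Lcmt2 had 56.5 CPM in Mettl14-cKO and 12.6 CPM in control, a ratio of 4.48 (4.13 to 4.87). Abcd4 had 40.2 CPM in Mettl14-cKO and 11.7 CPM in control, a ratio of 3.43 (3.14 to 3.75). These 3 genes were readily counted in both libraries, whereas the other 3 were rare in control. Aspdh had 554 UMIs (9.47 CPM) in Mettl14-cKO and 29 UMIs (0.532 CPM) in control, a ratio of 17.8 (12.3 to 26.8). Olfr57 had 346 UMIs (5.91 CPM) in Mettl14-cKO and 10 UMIs (0.183 CPM) in control, a ratio of 32.3 (17.3 to 67.9). Tstd1 had 203 UMIs (3.47 CPM) in Mettl14-cKO and 22 UMIs (0.403 CPM) in control, a ratio of 8.60 (5.53 to 14.03). The 3 members with the lowest control levels thus had the 3 largest ratios. All 6 passed a 2-fold difference upward, as did 5.99% of the 16164 genes with at least 30 UMIs over both libraries, and nothing is read from the members' count because the choice used it.

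Each member was found at low counts per barcode. With each barcode thinned to 1500 UMIs, Lsm10 was found in 9.47% of Mettl14-cKO and 3.53% of control barcodes. Lcmt2 was found in 8.48% of Mettl14-cKO and 2.15% of control barcodes, and Abcd4 in 5.95% of Mettl14-cKO and 1.75% of control barcodes. The share was 1.51% in Mettl14-cKO and 0.0903% in control for Aspdh, 0.994% in Mettl14-cKO and 0.0402% in control for Olfr57, and 0.522% in Mettl14-cKO and 0.0703% in control for Tstd1. Thinning left out 1628 Mettl14-cKO and 1464 control barcodes under that depth. Before thinning, the shares in Mettl14-cKO ran from 1.47% for Tstd1 to 22.2% for Lsm10, and in control from 0.0875% for Olfr57 to 10.7% for Lsm10.

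**Figure D1:**
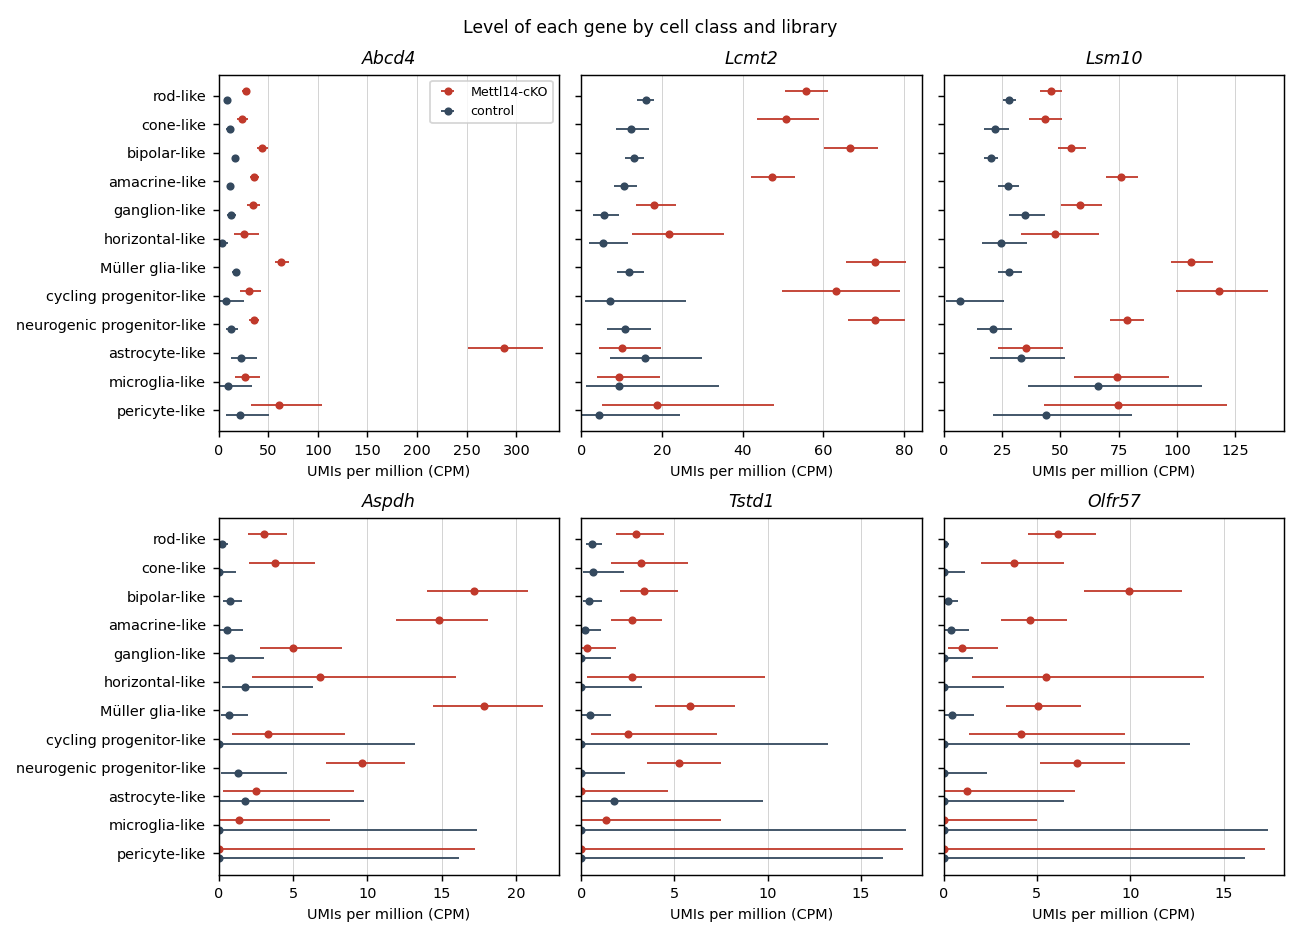
Level of each gene in CPM (x axis, linear, 1 scale per gene) in the 12 described classes (y axis) in the Mettl14-cKO library (red, upper point of each pair) and the control library (dark, lower point), with exact 95% Poisson intervals for counting error. Abcd4 stands apart in Mettl14-cKO astrocyte-like barcodes at 287 CPM, while Lcmt2 and Lsm10 are close between libraries in astrocyte-like and microglia-like barcodes.

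Abcd4, the lysosomal cobalamin transporter, was higher in every class that could be measured. Of the 12 described classes, 9 held at least 30 Abcd4 UMIs over both libraries, and in all 9 the Mettl14-cKO level was 2-fold or more above control, by ratios of 2.17 in cone-like to 12.6 in astrocyte-like barcodes. Rod-like barcodes had 27.4 CPM in Mettl14-cKO and 8.74 CPM in control, bipolar-like barcodes 43.7 CPM in Mettl14-cKO and 16.03 in control, and amacrine-like barcodes 35.8 CPM in Mettl14-cKO and 11.04 in control. Ganglion-like barcodes had 34.7 CPM in Mettl14-cKO and 11.9 CPM in control, and neurogenic progenitor-like barcodes had 35.4 CPM in Mettl14-cKO and 12.7 in control. Among the neural and Müller classes of the Mettl14-cKO library the level was highest in Müller glia-like barcodes, at 63.3 CPM (56.7 to 70.4) in Mettl14-cKO and 17.2 CPM (13.5 to 21.5) in control. In control the order was similar at the top, with Müller glia-like and bipolar-like barcodes (17.2 CPM beside 16.03 CPM) not separated beyond their counting intervals. With the classes limited to clusters in which each library held at least 25% of the barcodes, a limit chosen after the data were seen, 757 Mettl14-cKO and 1197 control rod-like barcodes had 28.9 CPM in Mettl14-cKO and 9.96 in control. Under the same limit 222 Mettl14-cKO and 190 control Müller glia-like barcodes had 55.1 CPM in Mettl14-cKO and 4.39 in control, the last from 4 UMIs, and the ratio was 12.6 (4.63 to 47.7) instead of 3.69.

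Of the 12 classes, astrocyte-like barcodes carried the highest level of Abcd4 in the Mettl14-cKO library. They held 228 Abcd4 UMIs in Mettl14-cKO (287 CPM, 251 to 327) and 13 in control (22.7 CPM, 12.1 to 38.8), a ratio of 12.6 (7.25 to 24.1). This was the highest ratio of the 5918 genes with at least 30 UMIs in that class, of which 2.62% were 2-fold or more higher. The next highest Mettl14-cKO class, Müller glia-like, did not reach it within its interval. In control, by contrast, the astrocyte-like level overlapped that of pericyte-like and Müller glia-like barcodes. The UMIs were spread over cells: 86 of 113 Mettl14-cKO astrocyte-like barcodes (76.1%) had at least 1 Abcd4 UMI, and 62 had 2 or more, with a median of 2 and a highest of 10. Of the 69 control astrocyte-like barcodes 11 (15.9%) had an Abcd4 UMI, 2 had 2 and none had more. The 5 Mettl14-cKO barcodes with the most Abcd4 held 37 of the 228 UMIs. At 1500 UMIs per barcode, Abcd4 was found in 40.7% of Mettl14-cKO (31.6 to 50.4, Clopper-Pearson) and 4.35% of control (0.906 to 12.2) astrocyte-like barcodes.

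**Figure D2:**
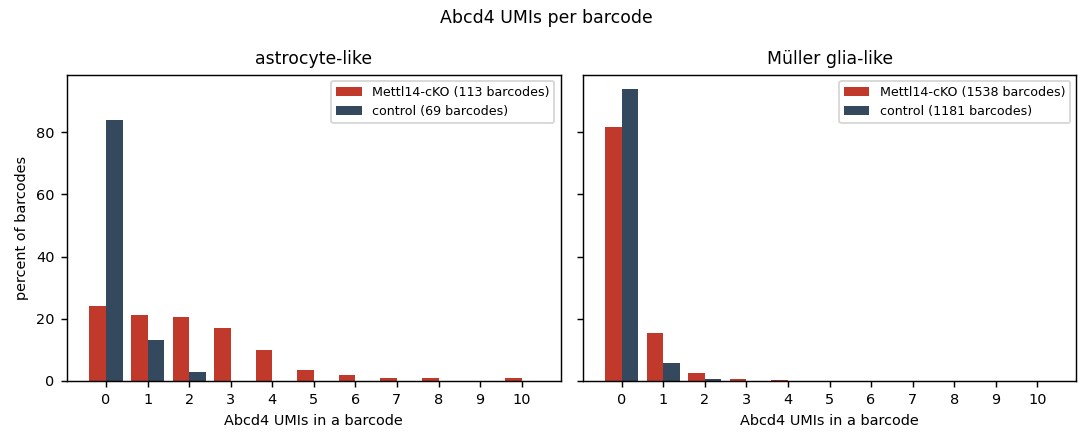
Number of Abcd4 UMIs in a barcode (x axis) against the percent of barcodes of a class (y axis, linear) for astrocyte-like (left) and Müller glia-like (right) barcodes, Mettl14-cKO in red on the left of each pair and control in dark. In astrocyte-like barcodes 76.1% of Mettl14-cKO and 15.9% of control barcodes have at least 1 UMI, and in Müller glia-like barcodes 18.3% in Mettl14-cKO and 6.01% in control do.

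The astrocyte-like class was set beside Pax2, Pdgfra and Gfap, which the gate also used, so their presence is no independent check. Pax2, a transcription factor of optic nerve astrocyte precursors, had 166 CPM in Mettl14-cKO and 168 CPM in control astrocyte-like barcodes. Pdgfra, the receptor for the growth factor that draws astrocytes over the retina, had 1153 CPM in Mettl14-cKO and 1132 in control, and Gfap, the astrocyte intermediate filament, had 916 CPM in Mettl14-cKO and 723 in control, a ratio of 1.27 (1.12 to 1.43). In Müller glia-like barcodes Pax2 had 4 UMIs in Mettl14-cKO and 2 in control, and Gfap had 8 in Mettl14-cKO and 12 in control. The microglial receptor Cx3cr1 was at 0 UMIs in astrocyte-like barcodes of both libraries. Rlbp1, a retinoid-binding protein used here as a Müller marker, had 414 CPM in Mettl14-cKO and 342 CPM in control astrocyte-like barcodes, against 659 CPM in Mettl14-cKO and 1291 in control Müller glia-like barcodes. Summed Müller markers stood at 30.01 in Mettl14-cKO and 25.6 in control per 10000 UMIs of astrocyte-like barcodes, close to the class's own markers at 34.4 in Mettl14-cKO and 31.9 in control, and pericyte markers at 6.92 in Mettl14-cKO and 4.42 in control. In the joint clustering 112 of 113 Mettl14-cKO and 69 of 69 control astrocyte-like barcodes lay in 1 cluster. Only 17 Mettl14-cKO and 5 control astrocyte-like barcodes had no Rlbp1 UMI, and these held 26 Abcd4 UMIs in Mettl14-cKO and 3 in control. With the class limited to barcodes with both Pax2 and Pdgfra, a limit chosen after the data were seen, 74 Mettl14-cKO and 48 control barcodes held 150 Abcd4 UMIs in Mettl14-cKO and 11 in control, and the log2 ratio was 3.35 instead of 3.66.

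The remaining classes outside the lineage held few Abcd4 UMIs. Microglia-like barcodes had 20 in Mettl14-cKO and 2 in control (27.0 CPM in Mettl14-cKO and 9.43 in control), and pericyte-like barcodes had 13 in Mettl14-cKO and 5 in control (60.8 CPM in Mettl14-cKO and 21.9 in control). Both ratios lay above 2, at 2.86 (0.695 to 25.2) and 2.78 (0.928 to 9.94), with intervals that reached below 1. At least 1 Abcd4 UMI was in 19 of 116 Mettl14-cKO and 2 of 42 control microglia-like barcodes, 16.4% in Mettl14-cKO and 4.76% in control. At 1500 UMIs per barcode, these were 4 of 103 in Mettl14-cKO (3.88%, 1.07 to 9.65) and 0 of 33 in control (upper limit 10.6%). Summed over microglia-like, pericyte-like and endothelial-like barcodes, a sum chosen after the data were seen, Abcd4 had 44 UMIs in Mettl14-cKO and 8 in control, 36.7 CPM in Mettl14-cKO and 12.9 in control, a ratio of 2.84 (1.32 to 6.98). Of the 44 Mettl14-cKO UMIs, 11 came from 9 endothelial-like barcodes, and 1 of those barcodes held 9 Abcd4 UMIs. The interval of the sum does not cover such a concentration in 1 barcode, so its lower limit above 1 is not firm. The mix of these classes differed between the libraries. RNA from other cells as a source of these UMIs was not tested.

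Lcmt2, the wybutosine enzyme, was higher in every class of the retinal lineage that could be measured, while astrocyte-like and microglia-like barcodes showed no detectable difference. It held enough UMIs in 8 classes, all 2-fold or more higher, by ratios of 3.26 in ganglion-like to 8.82 in cycling progenitor-like barcodes, the last resting on 2 control UMIs. Müller glia-like barcodes had 72.8 CPM in Mettl14-cKO and 11.8 CPM in control, a ratio of 6.16 (4.62 to 8.38). Neurogenic progenitor-like barcodes had 73.0 CPM in Mettl14-cKO and 10.8 in control, bipolar-like barcodes 66.7 CPM in Mettl14-cKO and 13.0 in control, and rod-like barcodes 55.7 CPM in Mettl14-cKO and 15.9 in control. Ganglion-like barcodes stood lowest among the classes of the lineage with enough UMIs, at 18.03 CPM in Mettl14-cKO and 5.54 CPM in control. Their Mettl14-cKO interval (13.5 to 23.5) lay below that of amacrine-like barcodes (42.2 to 53.1 around 47.4 CPM). Astrocyte-like barcodes had 8 Lcmt2 UMIs in Mettl14-cKO (10.1 CPM, 4.35 to 19.9) and 9 in control (15.7 CPM, 7.19 to 29.8), a ratio of 0.641 (0.215 to 1.87). Microglia-like barcodes had 7 in Mettl14-cKO and 2 in control, 9.44 CPM in Mettl14-cKO and 9.43 in control. The Mettl14-cKO levels of Lcmt2 in both of these classes thus lay within the range of the control classes, 4.38 to 15.9 CPM.

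Lsm10, the U7 subunit, was the least uniform of the abundant members. Of 11 classes with enough UMIs, 5 were 2-fold or more higher and none lower. The ratio was 3.78 (3.11 to 4.62) in Müller glia-like barcodes, at 106 CPM in Mettl14-cKO and 28.1 CPM in control. It was 3.75 (2.63 to 5.51) in neurogenic progenitor-like barcodes, at 78.4 CPM in Mettl14-cKO and 20.9 in control, 2.78 in amacrine-like and 2.70 in bipolar-like barcodes. In cycling progenitor-like barcodes Lsm10 reached its highest level, 118 CPM (142 UMIs, interval 99.4 to 139) in Mettl14-cKO. That interval overlapped the Mettl14-cKO interval of Müller glia-like barcodes (97.5 to 115). Control cycling progenitor-like barcodes had 7.16 CPM, and only 39 barcodes with 2 Lsm10 UMIs were available. The ratio stayed under 2 in cone-like (1.97), horizontal-like (1.94), ganglion-like (1.67) and rod-like (1.62) barcodes, with each interval above 1. In the 757 Mettl14-cKO and 1197 control rod-like barcodes of clusters shared by both libraries, Lsm10 had 48.4 CPM in Mettl14-cKO and 37.4 in control, and the interval of the ratio included 1 (1.29, 0.972 to 1.72). Astrocyte-like barcodes had 35.3 CPM in Mettl14-cKO and 33.2 CPM in control, a ratio of 1.06 (0.573 to 2.01). Microglia-like barcodes had 74.2 CPM in Mettl14-cKO and 66.0 CPM in control, a ratio of 1.12 (0.616 to 2.19), and their control level was the highest of the control classes.

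**Figure D3:**
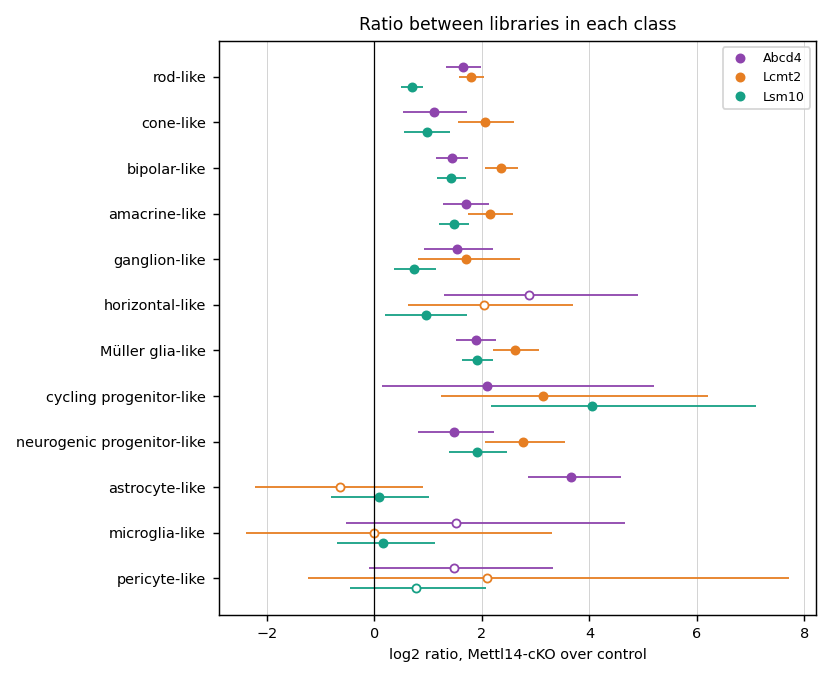
Log2 ratio of Mettl14-cKO over control (x axis) for Abcd4 (purple, top of each trio), Lcmt2 (orange) and Lsm10 (green) in the 12 described classes (y axis), with exact 95% intervals for counting error and open points where both libraries together hold under 30 UMIs. In astrocyte-like barcodes Abcd4 stands at 3.66 while Lsm10 stands at 0.088.

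Aspdh, Tstd1 and Olfr57 were near the detection limit in control. Any class in which they reached 30 UMIs did so mainly through the Mettl14-cKO library, with 0 to 8 UMIs in control, so such a class had to be higher. Aspdh reached 30 UMIs in 4 classes, with ratios of 7.57 to 26.7. Its Mettl14-cKO level was 17.8 CPM in Müller glia-like, 17.1 CPM in bipolar-like and 14.8 CPM in amacrine-like barcodes, against 0.669, 0.753 and 0.561 CPM in control. Rod-like barcodes had a lower Aspdh level, 3.08 CPM (1.97 to 4.58) in Mettl14-cKO from 24 UMIs and 0.208 CPM in control from 3. The Mettl14-cKO interval of bipolar-like barcodes (13.97 to 20.8) lay above that of rod-like barcodes. Olfr57 was spread differently over the classes: 9.91 CPM in bipolar-like, 7.16 CPM in neurogenic progenitor-like and 6.15 CPM (4.53 to 8.15) in rod-like barcodes of Mettl14-cKO. In control it had 2 UMIs in bipolar-like barcodes and 0 in neurogenic progenitor-like and rod-like barcodes. Against the limit that a count of 0 allows, 3 UMIs of the class, Olfr57 was at least 29.6-fold higher in rod-like and at least 3.76-fold higher in neurogenic progenitor-like barcodes, at the observed Mettl14-cKO level. With the counting error of Mettl14-cKO included, the lower 95% limits of the ratio were 23.1 in rod-like and 2.92 in neurogenic progenitor-like barcodes. Tstd1 had 31 UMIs in Mettl14-cKO and 2 in control in Müller glia-like barcodes (5.82 CPM in Mettl14-cKO and 0.446 in control), and 23 UMIs in Mettl14-cKO and 8 in control in rod-like barcodes (2.95 CPM in Mettl14-cKO and 0.555 in control, a ratio of 5.31). Tstd1 had 30 UMIs in neurogenic progenitor-like barcodes of Mettl14-cKO and 0 in control, so it was at least 2.75-fold higher at the observed level, with a lower 95% limit of 2.10. In the rod-like barcodes of clusters shared by both libraries Tstd1 had 2 UMIs in Mettl14-cKO and 3 in control. Under the same limit it had 1 UMI in Mettl14-cKO and 0 in control in Müller glia-like barcodes. Neurogenic progenitor-like barcodes kept 26 in Mettl14-cKO and 0 in control.

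The 3 rare genes were almost without UMIs outside the lineage. Astrocyte-like barcodes held 2 Aspdh UMIs in Mettl14-cKO and 1 in control, 0 of Tstd1 in Mettl14-cKO and 1 in control, and 1 of Olfr57 in Mettl14-cKO and 0 in control. Microglia-like barcodes held 1 UMI each of Aspdh and Tstd1 in Mettl14-cKO and none in control, and none of Olfr57 in either library. Differences at these counts were not detectable: a count of 0 allows up to 3.78 CPM in Mettl14-cKO and 5.24 CPM in control astrocyte-like barcodes.

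Read by class, the members past 2-fold among those with at least 30 UMIs, with the shares of all such genes past 2-fold beside them, were as follows. Nothing is read from the members' counts, since the choice of members used these classes and the rare members reached 30 UMIs mainly through the library in which they were higher. In Müller glia-like barcodes 5 of 5 were higher (5.87% of all genes; 3.85% were lower), in bipolar-like 5 of 5 (4.5% higher, 4.93% lower), in amacrine-like 5 of 5 (3.41%, 2.76%) and in neurogenic progenitor-like 6 of 6 (5.63%, 3.1%). In rod-like barcodes 4 of 5 were higher (5.08% of all genes higher, 3.75% lower), in cone-like 2 of 3 (4.16%, 2.61%), in ganglion-like 2 of 3 (1.97%, 1.55%) and in cycling progenitor-like 3 of 3 (9.63%, 4.98%). In horizontal-like barcodes 0 of 1 was higher (3.71% of all genes higher, 2.51% lower), in astrocyte-like 1 of 2 (2.62%, 1.06%) and in microglia-like 0 of 1 (7.54%, 2.12%). In pericyte-like barcodes no member could be measured (4.05%, 1.71%). No member was 2-fold or more lower in any class. The median log2 ratio of all genes lay between -0.067 in cone-like and 0.043 in astrocyte-like barcodes. Barcodes in no class were also higher: Abcd4 had 41.2 CPM in Mettl14-cKO and 9.08 CPM in control, and Lcmt2 61.2 CPM in Mettl14-cKO and 10.7 in control. The ratios there were 8.97 (3.71 to 28.3) for Aspdh and 6.41 (2.36 to 24.4) for Olfr57, below their ratios over all kept barcodes. These rest on 5 and 4 control UMIs. Tstd1 had 26 UMIs in Mettl14-cKO and 1 in control there.

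Within the Mettl14-cKO library, member levels were also set against Mettl14 itself. Barcodes with at least 1 Mettl14 UMI numbered 777, and 12725 had none, with median depths of 4590 and 3142 UMIs. Lcmt2 had 54.6 CPM in barcodes with and 56.7 CPM in barcodes without a Mettl14 UMI, a ratio of 0.963 (0.856 to 1.08). Lsm10 had 57.0 CPM in barcodes with and 64.8 CPM in barcodes without, a ratio of 0.879 (0.784 to 0.983), and Abcd4 had 33.6 CPM with and 41.0 CPM without, a ratio of 0.821 (0.707 to 0.949). Olfr57 went the other way, at 8.74 CPM with and 5.59 CPM without, a ratio of 1.56 (1.14 to 2.10). Aspdh had a ratio of 0.706 (0.501 to 0.972) and Tstd1 of 1.07 (0.657 to 1.68). In the control library the same split gave 0.87 (0.708 to 1.06) for Abcd4, 0.985 (0.814 to 1.18) for Lcmt2 and 0.937 (0.82 to 1.07) for Lsm10. Taken class by class, the interval included 1 in 29 of 29 gene and class pairs with at least 5 member UMIs in barcodes with Mettl14. A Mettl14 UMI at this depth does not tell an intact from a recombined allele, and a barcode without one may still express the gene.

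The 3 abundant members were found together in too few barcodes to tell whether they gather in the same ones. In Mettl14-cKO Müller glia-like barcodes thinned to 1500 UMIs, Lcmt2 and Lsm10 were found together in 22 of 1431 barcodes, where the product of their shares gives 23.4. Abcd4 and Lcmt2 were found together in 18, where the product gives 15.03, and Abcd4 and Lsm10 in 17, where it gives 20.4. In neurogenic progenitor-like barcodes Lcmt2 and Lsm10 were together in 10 of 1343, where the product gives 16.3. Abcd4 was there with Lcmt2 in 10 (product 7.08) and with Lsm10 in 7 (product 7.47). In amacrine-like barcodes Abcd4 was with Lcmt2 in 7 of 1323 (product 4.17) and with Lsm10 in 5 (product 6.33). Lcmt2 and Lsm10 were together in 11 of these (product 9.08). At these numbers no pair stood clearly above the product of its shares.

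The members differ in gene structure, which was read from the GENCODE annotation of GRCm38 and was not used to choose them. Lcmt2 (ENSMUSG00000074890, chr2:121128307-121140653, minus strand) has its coding transcript in 1 exon of 3056 bases. Lsm10 (ENSMUSG00000050188, chr4:126096623-126098584, plus strand) and Olfr57 (ENSMUSG00000060205, chr10:79028741-79036274, plus strand) have 2 exons each, the longest of 756 and 1490 bases. Tstd1 (ENSMUSG00000103711, chr1:171418872-171420352, plus strand) has 4 exons in a transcript of 551 bases, and Aspdh (ENSMUSG00000038704, chr7:44465391-44467758, plus strand) has 7 exons in 1017 bases. Abcd4 (ENSMUSG00000021240, chr12:84601464-84617413, minus strand) is unlike them, with 19 exons and a longest exon of 507 bases. The median gene tested had 9 exons and a longest exon of 1358 bases. Thus 5 of the 6 lay below the median exon number, and 4 of the 6 had a longest exon shorter than the median.

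Exon number ran with the share of genes past 2-fold over the whole table. Of 480 genes with 1 exon, 15.2% were 2-fold or more higher in Mettl14-cKO and 5.0% lower. Of 735 genes with 2 exons, 14% were higher and 4.08% lower, and of 3084 genes with 3 to 5 exons 9.18% were higher and 4.41% lower. The share higher was 4.42% (3.5% lower) among 4166 genes with 6 to 10 exons, the range that holds Aspdh, and 2.78% (2.99% lower) among 5822 genes with 11 or more, the range that holds Abcd4. These shares cover the 88.4% of tested genes whose identifiers matched the annotation, and genes of 1 library pair are not replicates. UMI levels were not matched between the ranges. The sequence GGACT, a common form of the m6A consensus, occurred 6 times in the Lcmt2 transcript, 4 times in Abcd4 and 2 times each in Lsm10 and Olfr57, and in neither Aspdh nor Tstd1. That is 1.96, 1.73, 2.12, 1.21, 0 and 0 per 1000 bases in the order Lcmt2, Abcd4, Lsm10, Olfr57, Aspdh and Tstd1, with a median of 1.05 over all genes. A match is a description of the letters and does not show a methylated site.

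**Figure D4:**
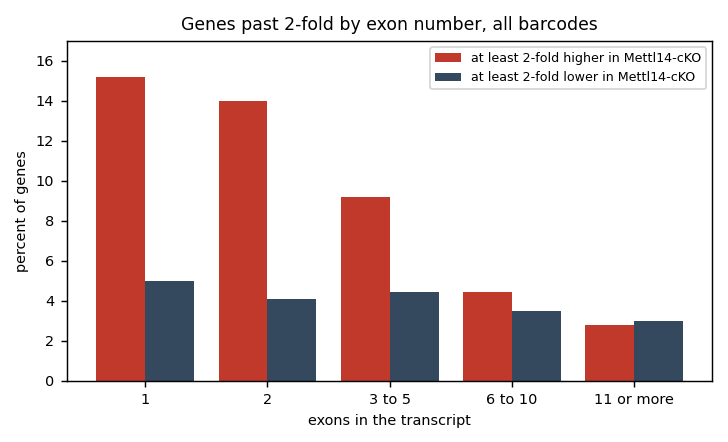
Exons in the annotated transcript (x axis, 5 ranges) against the percent of genes in that range (y axis, linear, from 0) that were at least 2-fold higher (red, left bar) or lower (dark, right bar) in Mettl14-cKO over all kept barcodes. The higher share runs from 15.2% at 1 exon to 2.78% at 11 or more exons, and the lower share lies between 2.99% and 5.0% throughout.

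Promoter sequence is shown for the 3 members whose window held the ETS core CGGAAG. This motif was picked from those searched below, and its part in the difference between libraries was not tested. The windows are 300 bases of the gene's strand, 250 before and 50 after the RefSeq start (GRCm38.p6), and the capitals mark every motif found on either strand. RefSeq windows were held for 4 of the 6 members, Lcmt2, Lsm10, Aspdh and Tstd1.
Lcmt2 (chr2:121140649-121140948, minus strand): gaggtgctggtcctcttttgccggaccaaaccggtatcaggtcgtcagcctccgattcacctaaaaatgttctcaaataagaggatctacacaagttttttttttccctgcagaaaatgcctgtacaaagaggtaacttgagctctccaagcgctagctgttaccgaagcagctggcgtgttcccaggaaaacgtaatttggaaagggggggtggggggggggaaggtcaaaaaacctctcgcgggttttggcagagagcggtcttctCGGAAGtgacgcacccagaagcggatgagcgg
Lsm10 (chr4:126096403-126096702, plus strand): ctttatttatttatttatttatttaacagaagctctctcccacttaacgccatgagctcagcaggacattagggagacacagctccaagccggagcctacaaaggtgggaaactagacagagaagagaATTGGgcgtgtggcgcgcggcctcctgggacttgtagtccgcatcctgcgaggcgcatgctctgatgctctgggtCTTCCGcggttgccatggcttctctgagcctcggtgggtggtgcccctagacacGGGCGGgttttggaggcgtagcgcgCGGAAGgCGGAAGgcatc
Tstd1 (chr1:171418783-171419082, plus strand): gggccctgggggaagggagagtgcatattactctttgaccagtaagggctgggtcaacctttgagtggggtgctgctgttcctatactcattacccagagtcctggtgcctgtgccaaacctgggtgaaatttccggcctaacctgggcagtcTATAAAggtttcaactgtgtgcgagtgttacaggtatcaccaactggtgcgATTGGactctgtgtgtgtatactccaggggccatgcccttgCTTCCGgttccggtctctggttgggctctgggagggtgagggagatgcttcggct
Each motif was searched on both strands, and none contains another. The ETS core CGGAAG was in 17% of 32544 mouse promoter windows, and it occurred 3 times in Lsm10 and 1 time each in Lcmt2 and Tstd1. The CCAAT box, searched as CCAAT, was in 37.4% of windows and occurred 1 time each in Lsm10 and Tstd1. The TATA box, searched as TATAAA, was in 13.6% of windows and occurred 1 time in Tstd1. The GC box, searched as GGGCGG, was in 35.9% of windows and occurred 1 time in Lsm10. The E box, searched as CACGTG, was in 7.17% of windows and in none of the 4. Aspdh (chr7:44465185-44465484, plus strand) held none of them. The windows of Lcmt2 and Lsm10 had 15 and 19 CpG dinucleotides, those of Tstd1 and Aspdh 6 and 1, and the median window had 7. No motif was shared by all 4 windows, and the shares over all windows were not matched for CpG number.

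The neighbours of the members on the chromosome mostly did not share their difference. Of the 10 nearest counted neighbours of Lsm10, 5 on each side, none was past 2-fold in either direction. Around Abcd4, 1 of 10 was higher, the ring finger gene Rnf113a2 at 86.8 CPM in Mettl14-cKO and 41.7 CPM in control, and the others lay between -0.78 and 0.54 on the log2 scale. In astrocyte-like barcodes 6 of the 10 neighbours of Abcd4 had enough UMIs, and none was past 2-fold, with log2 ratios of -0.21 to 0.53. What genomic sequence the Egfp/Cre transgene carries is not given in the labels, and its part in the Abcd4 result was not tested.

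Lcmt2 overlaps Adal on the opposite strand by 226 bases and Gm23858 on its own strand by 106 bases, and Tstd1 overlaps Usf1 on the same strand by 271 bases. Adal, an adenosine deaminase-like gene, had 14.9 CPM in Mettl14-cKO and 26.4 CPM in control, and Usf1 had 38.9 CPM in Mettl14-cKO and 37.9 in control, so neither of these 2 was past 2-fold, and Gm23858 was not among the counted features. The strand setting of the counting is not given in the sources used here, so how UMIs in the overlaps were assigned is uncertain. Among the neighbours of Lcmt2, 1 was past 2-fold, the transglutaminase Tgm5, with 41 UMIs in Mettl14-cKO and 2 in control. The neighbour nearest to Aspdh on its lower side, Lrrc4b, a synaptic adhesion gene, had 64.3 CPM in Mettl14-cKO and 28.0 CPM in control, whereas Josd2, 229 bases from Aspdh on the other side, had 30.4 CPM in Mettl14-cKO and 42.7 in control. Next to Olfr57, 2610008E11Rik had 266 CPM in Mettl14-cKO and 59.5 CPM in control, and Gm30400 was lower, with 10 UMIs in Mettl14-cKO and 32 in control. Of the 10 neighbours of Tstd1, 4 were higher over all kept barcodes, where 5.99% of all genes were. Alyref2 had 1887 UMIs in Mettl14-cKO and 723 in control. The rare ones were Arhgap30 (34 in Mettl14-cKO and 11 in control), Ly9 (26 and 12) and Cd48 (134 and 29). In Müller glia-like barcodes 4 of the 10 had enough UMIs, and 1 was higher, with a median log2 ratio of -0.11. Microglia-like barcodes made up 0.86% of kept barcodes in Mettl14-cKO and 0.37% in control. The part of such class mix in the sums over all barcodes was not tested.

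**Figure D5:**
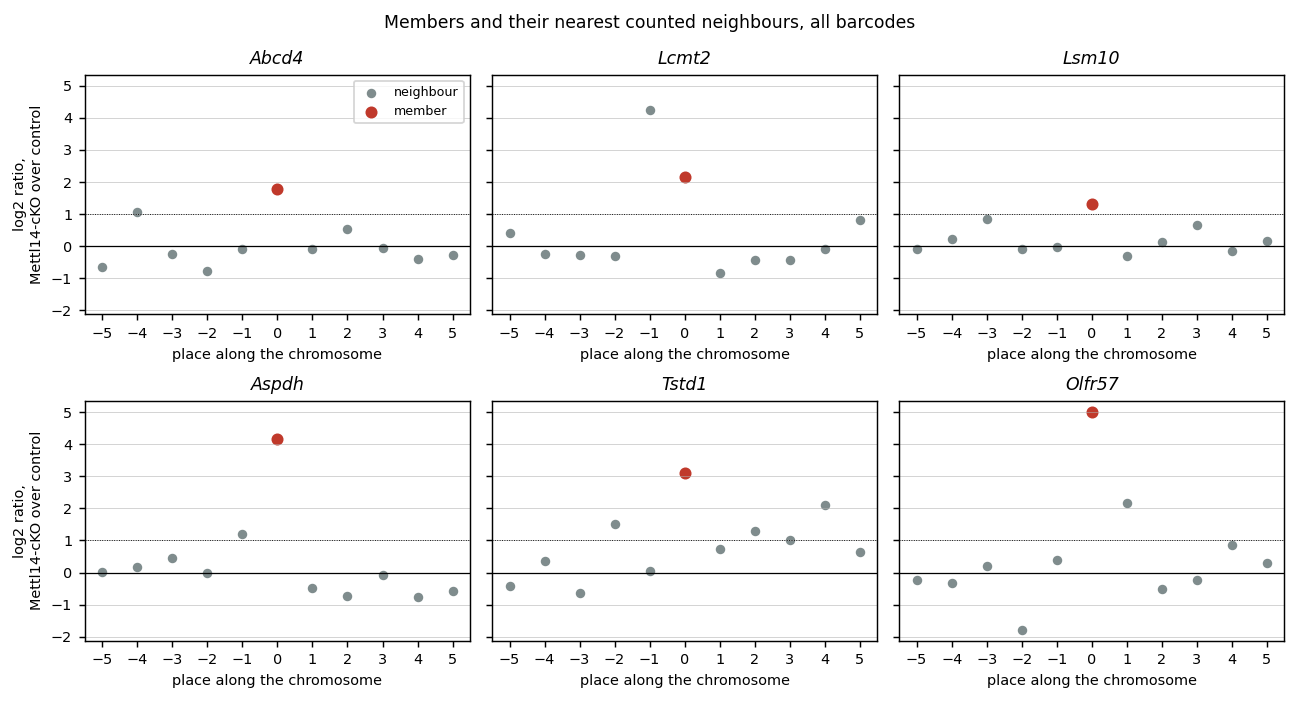
Log2 ratio of Mettl14-cKO over control over all kept barcodes (y axis) for each member (red, place 0) and its 5 nearest counted neighbours on each side (grey, x axis, place by start coordinate), with a dotted line at 2-fold. Around Lsm10 no neighbour passes the line, around Tstd1 4 do, and the neighbours of Abcd4 lie between -0.78 and 1.06. Of all genes tested, 5.99% pass it.

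Genes of the members' pathways showed few differences of this size over all kept barcodes, where 5.99% of genes were 2-fold or more higher and 4.47% lower. None of 14 measured genes of cobalamin transport and use was past 2-fold, with a median log2 ratio of 0.070. Among them Lmbrd1, the lysosomal membrane partner of Abcd4, had 38.0 CPM in Mettl14-cKO and 47.5 CPM in control. Among other ABCD transporters, which act in peroxisomes, Abcd2 had 25.4 CPM in Mettl14-cKO and 17.5 in control, and Abcd3 had 28.4 CPM in Mettl14-cKO and 34.0 in control, both within 2-fold. In astrocyte-like barcodes none of the 6 measured cobalamin genes was past 2-fold (median log2 ratio -0.20).

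Around Lcmt2, 1 of 7 genes of wybutosine synthesis and leucine carboxyl methylation was higher, with a median log2 ratio of -0.054. It was Trmt12, also called Tyw2, the wybutosine enzyme of an earlier step, with 18.9 CPM in Mettl14-cKO and 6.75 CPM in control, a ratio of 2.80 (2.48 to 3.16). Like Lcmt2 its transcript is a single exon. Trmt5, the methyltransferase of the opening step, had 13.7 CPM in Mettl14-cKO and 7.96 in control, Tyw1 had 14.3 CPM in Mettl14-cKO and 15.02 in control, Tyw3 had 16.3 CPM in Mettl14-cKO and 12.8 in control and Tyw5 had 26.7 CPM in Mettl14-cKO and 27.7 in control. Around Lsm10, none of 15 measured genes of the U7 particle and histone message processing was past 2-fold (median log2 ratio 0.0049), nor any of 12 Sm-like genes (median -0.062). Lsm11, the other U7-specific subunit, had 25.3 CPM in Mettl14-cKO and 20.4 CPM in control, and Slbp, which binds the histone stem-loop, had 45.2 CPM in Mettl14-cKO and 45.9 in control.

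Around Aspdh, none of 13 measured genes of aspartate and NAD synthesis was higher and 2 were lower, with a median log2 ratio of -0.21. These were Nadk2, the mitochondrial NAD kinase, at 54.8 CPM in Mettl14-cKO and 147 CPM in control, and Nmnat3, a mitochondrial NAD-synthesizing enzyme, at 1.78 CPM in Mettl14-cKO and 4.09 in control. Around Tstd1, 1 of 9 genes of thiosulfate and sulfide metabolism was higher, with a median of 0.33. It was Tst, the mitochondrial thiosulfate sulfurtransferase rhodanese, at 16.6 CPM in Mettl14-cKO and 4.95 CPM in control, a ratio of 3.35 (2.92 to 3.85). Of 1133 other olfactory receptor genes with rows in the files, 139 had a UMI and 10 had at least 30. Of these 10, 5 were higher and 1 lower. The most counted of the 5, Olfr889, had 268 UMIs in Mettl14-cKO and 98 in control, and Olfr1564 had 36 in Mettl14-cKO and 3 in control. Olfr1393 had 38 in Mettl14-cKO and 12 in control, Olfr1369-ps1 had 51 in Mettl14-cKO and 21 in control, and Olfr1423 had 27 in Mettl14-cKO and 12 in control. Olfr267, the lower one, had 13 in Mettl14-cKO and 30 in control. The median log2 ratio of all genes was -0.021.

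The genes most like each member were sought by Pearson's r of log2(CPM + 5) over 14 points, the 7 classes with at least 200 barcodes in each library, among 12961 genes. The points share libraries, and the choice of the members makes high values with other genes of like difference likely, so r is a description. Abcd4 was most like Brf2, a factor of RNA polymerase III initiation, the small GTPase gene Arf6, and Rpp25l (r = 0.955, 0.952 and 0.951). Lcmt2 was most like the zinc finger genes Zfp758 and Zfp433 and Yae1d1 (0.975, 0.972 and 0.970), and Lsm10 was most like Zfp992, the lipoyltransferase gene Lipt1 and Gemin7 of the SMN complex (0.949, 0.948 and 0.946). Aspdh was most like Trmt12, Zfp992 and Pelo, a ribosome rescue factor (0.958, 0.939 and 0.938). Tstd1 was most like Lcmt2, Commd2 and Zfp433 (0.962, 0.955 and 0.955), and Olfr57 was most like E430024I08Rik, Gm15446 and Zfp759 (0.981, 0.978 and 0.975). Zfp992 had 35.7 CPM in Mettl14-cKO and 2.77 CPM in control, Zfp758 had 56.3 CPM in Mettl14-cKO and 10.7 in control, and E430024I08Rik had 63.4 CPM in Mettl14-cKO and 9.88 in control. Brf2 had 35.1 CPM in Mettl14-cKO and 17.2 in control, Arf6 had 42.7 CPM in Mettl14-cKO and 18.7 in control and Rpp25l had 130 CPM in Mettl14-cKO and 52.7 in control. Each named gene with an annotated structure had 5 exons or fewer. Of the 14287 tested genes with such a structure, 480 had 1 exon, 735 had 2 and 3084 had 3 to 5. The named genes were sought by likeness to members chosen as higher, and some recur. Low exon number also ran with the share of higher genes over the whole table, so nothing is read from it here.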

How the data were processed

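Transcripts were counted in 1 Mettl14-cKO and 1 control library of dissociated mouse retina at day 7 (10x Genomics 3′ chemistry). The authors deposited whole-number UMI counts per gene and barcode, made with Cell Ranger 6.1.1 on mm10 per the submitters' processing notes; the lowest deposited barcode held 500 UMIs, and other filters are not given in the sources used here. The members, gene lists, markers and gate were chosen with earlier results of these data known. Barcodes under 1000 UMIs were left out. A barcode went to the class whose summed marker UMIs stood highest over the mean at its depth (pseudocount 0.5), given at least 3 different markers and a lead of 1.5 times over the next of 14 classes; 12 classes with at least 25 barcodes in each library were described. Member UMIs of a class were added up in each library and set over that class's total. Intervals are exact 95% Poisson, conditional binomial (ratios) or Clopper-Pearson and cover counting error only. A ratio needed 30 UMIs over both libraries to be counted, and 2-fold was the threshold. Named besides the members were Mettl14, 5 neighbours on each side in the RefSeq gene table, the 3 genes most alike, and list genes past 2-fold; some genes these rules take are not reported here. Doublets were not removed; Scrublet marked 9.35% of Mettl14-cKO and 7.38% of control barcodes, and their removal was an alternative. Python 3.11.15, scipy 1.17.1, scanpy 1.11.5 and, for trimmed-mean scaling alone, edgeR 4.0.16 were used. The ratio step was tested on simulated data.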

Additional observations from a re-analysis of the deposited data

Results flagged for a closer look

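Lcmt2 in astrocyte-like barcodes stood apart in direction, with a log2 ratio of -0.64 (8 UMIs in Mettl14-cKO and 9 in control) beside higher values in each class of the retinal lineage; the difference between classes was not tested, and the interval (0.215 to 1.87 as a ratio) includes 1.

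Barcodes under 1000 UMIs, which entered only the setting with every deposited barcode, numbered 1817 in Mettl14-cKO and 1861 in control and carried the members too. Abcd4 had 54.3 CPM in Mettl14-cKO and 18.9 CPM in control there, Lcmt2 had 63.2 CPM in Mettl14-cKO and 14.5 in control, and Lsm10 had 57.3 in Mettl14-cKO and 21.8 in control. Aspdh had 29.0 CPM (39 UMIs) in Mettl14-cKO and 0.726 CPM (1 UMI) in control, Olfr57 had 18.6 CPM (25 UMIs) in Mettl14-cKO and 0.726 CPM (1 UMI) in control, and Tstd1 had 8.18 CPM (11 UMIs) in Mettl14-cKO and 0.726 CPM (1 UMI) in control. Over the kept Mettl14-cKO barcodes Aspdh had 9.47 CPM and Olfr57 5.91 CPM, and neither interval there overlapped that of the shallow barcodes.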

How the results depend on the processing

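With 1 library per genotype, depth limits the rare members and the small classes, and no replicate could be left out. No paired analysis was possible because each genotype has 1 library and the labels carry no replicate numbers. The settings tried were every deposited barcode, a minimum of 2000 UMIs, a mitochondrial filter, removal of Scrublet doublets, 3 other scalings, a stricter gate, joint Leiden clusters and equal weight for each class. The log2 ratios over all barcodes moved past their counting interval only for Abcd4 with equal class weights, at 1.58 instead of 1.78. Of 349 class values of 36 member and class pairs over 11 settings, 348 were above 0, 346 stayed within the counting interval, and none reversed past it. The members were chosen as higher in these classes, and the settings reuse much of the same UMIs. These counts therefore describe the processing and are no check of the direction. Within clusters shared by both libraries, a setting chosen after the data were seen, Abcd4 in Müller glia-like barcodes stood at 3.65 and Lsm10 in rod-like barcodes at 0.37. Under another setting Lsm10 in neurogenic progenitor-like barcodes reached 2.60, above its interval of 1.39 to 2.46. The value below 0 was Lsm10 in astrocyte-like barcodes without Scrublet doublets, at -0.018, and its range over settings was up to 0.16. Abcd4 in astrocyte-like barcodes ranged from 3.35 to 3.68. The number of classes past 2-fold was 1 for Tstd1 at a minimum of 2000 UMIs, 2 for Olfr57 with a stricter gate, and 7 for Aspdh and 6 for Tstd1 with a minimum of 10 UMIs per ratio. Unthinned shares of barcodes were 14.1%, 20.2%, 22.2%, 3.95%, 1.47% and 2.50% in Mettl14-cKO for Abcd4, Lcmt2, Lsm10, Aspdh, Tstd1 and Olfr57, and 5.12%, 5.67%, 10.7%, 0.254% and 0.193% in control for the same genes without Olfr57; deeper barcodes hold more UMIs by construction.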
